A study of Mus musculus with 47 samples.

Results

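The 6 RNA-seq libraries described here compare basal with luminal epithelial cells of the mouse mammary gland at day 3 of lactation (L3). They are the 3 basal and the 3 luminal libraries whose labels give that day, replicates 4, 5 and 6 of each cell type, of 46 libraries with values and 47 described in all. Both cell types came from FVB/N females that had been mated as young adults and were 3 days post-partum, without a transgene or drug treatment in the labels. Luminal cells (Lin- CD24+ CD29lo) and basal cells (Lin- CD24+ CD29hi) were separated by fluorescence-activated cell sorting after cells carrying blood, endothelial and stromal lineage antigens had been gated out. Glands of several mice were pooled for a sort, the gates were adjusted slightly from sort to sort, and the basal and the luminal library of a replicate number share their sort date, sequencing lane and RNA amplification batch. All 6 libraries were run on 1 lane and amplified in 1 batch, while the 3 sorts had different dates. Untreated FVB/N mice were also sampled when non-pregnant at week 10 (W10) and month 4 (M4), at pregnancy days 3.5 (P3.5) and 14.5 (P14.5), at lactation day 10 (L10), and at day 2 (Id2) and week 4 (Iw4) of involution after forced weaning. Those libraries serve below to estimate the spread and to show what differs at L3.

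The deposited values are reads per gene relative to a library size that the authors corrected for composition, in the unit CPM of edgeR. The basal libraries held 14028675, 9625119 and 11147738 reads on genes in replicates 4, 5 and 6, and the luminal libraries 12413569, 11621415 and 8295520.0. Throughout, 3 values in a row are those of replicates 4, 5 and 6. The casein genes *Csn1s1*, *Csn1s2a*, *Csn1s2b*, *Csn2* and *Csn3*, together with *Wap*, took 46.8, 27.1 and 58.2% of the reads of the luminal libraries. In the basal libraries these genes took 2.06, 0.759 and 4.42% of the reads. All are among the 17 milk protein genes listed below. Because the correction takes this load out of the library size, the effective size of the luminal libraries was 0.447, 0.731 and 0.344 of their reads, and a CPM value can exceed what the raw share of reads would give. A floor of 3 reads was worth between 0.241 CPM in basal replicate 4 and 1.05 CPM in luminal replicate 6. It covers counting error only.

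The mammary duct and alveolus are built of an inner layer of luminal cells, which synthesize and secrete milk under the control of prolactin and STAT5, and an outer layer of basal cells. Most basal cells are myoepithelial. They carry a contractile apparatus like that of smooth muscle, rest on the basement membrane and contract when oxytocin from the pituitary reaches its receptor, which ejects the milk. In smooth muscle, calcium and calmodulin activate myosin light chain kinase, and SRF with its myocardin-family partners drives the contractile genes through CArG boxes in their promoters.

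The promoters of a few genes that the comparison turns on are printed here because they carry the letters that these factors are known to recognize. Sequences are from RefSeq (build GRCm38.p6), 250 bases before to 50 bases after the annotated start, read 5′ to 3′ on the strand of the gene, with the motif in capitals. *Csn2* encodes beta-casein and *Csn1s1* alpha-S1-casein, both with a single TTCNNNGAA, the STAT5 recognition motif. The *Csn2* promoter lies at chr5:87699376-87699675 on the reverse strand and that of *Csn1s1* at chr5:87665958-87666257 on the forward strand.
Csn2: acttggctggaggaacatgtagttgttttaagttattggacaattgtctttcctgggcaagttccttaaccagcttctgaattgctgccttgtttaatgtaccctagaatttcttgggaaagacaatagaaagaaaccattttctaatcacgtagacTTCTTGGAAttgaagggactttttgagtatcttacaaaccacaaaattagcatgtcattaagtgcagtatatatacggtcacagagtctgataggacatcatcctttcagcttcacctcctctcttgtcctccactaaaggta
Csn1s1: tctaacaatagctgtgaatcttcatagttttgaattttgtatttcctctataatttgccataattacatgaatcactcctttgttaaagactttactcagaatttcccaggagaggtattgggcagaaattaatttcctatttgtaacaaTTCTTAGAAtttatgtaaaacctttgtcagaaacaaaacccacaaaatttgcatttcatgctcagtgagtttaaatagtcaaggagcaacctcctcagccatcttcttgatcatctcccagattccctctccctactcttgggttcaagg
*Myl9* encodes the regulatory light chain of smooth muscle myosin and *Srf* the factor itself. Their promoters lie at chr2:156775214-156775513 on the forward strand and at chr17:46556113-46556412 on the reverse strand, with 1 CArG box in the first and 2 in the second.
Myl9: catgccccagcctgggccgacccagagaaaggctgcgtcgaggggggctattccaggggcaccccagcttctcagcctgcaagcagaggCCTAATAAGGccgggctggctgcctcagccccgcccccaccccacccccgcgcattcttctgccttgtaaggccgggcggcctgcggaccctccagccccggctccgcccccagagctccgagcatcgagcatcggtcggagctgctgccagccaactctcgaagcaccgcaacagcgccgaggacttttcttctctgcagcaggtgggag
Srf: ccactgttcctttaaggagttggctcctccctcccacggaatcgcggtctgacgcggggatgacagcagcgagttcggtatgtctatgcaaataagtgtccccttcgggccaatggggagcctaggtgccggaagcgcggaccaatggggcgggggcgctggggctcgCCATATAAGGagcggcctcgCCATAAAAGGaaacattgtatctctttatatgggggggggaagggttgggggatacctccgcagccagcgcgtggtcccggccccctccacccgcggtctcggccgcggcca

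Both motifs were searched on both strands, and a match is a description, not a site shown to be bound. A CArG box was found in a promoter of 1.61% of the 11722 genes of the table with a RefSeq promoter, in 2.71% of the 2100 that were higher in basal cells, in 1.34% of the 1348 that were higher in luminal cells and in 1.38% of the 8274 that were not called. Among 28 genes of the contractile apparatus, 5 had one (17.9%), and none of 13 milk protein genes did. TTCNNNGAA was in a promoter of 8.3% of all genes, of 8% of those higher in basal cells and of 8.38% of those higher in luminal cells. It was found in 5 of the 13 milk protein genes (38.5%) and in 2 of the 28 contractile genes. Windows of 300 bases leave out distant and intronic elements.

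At L3, all 17 milk protein genes and most genes of fatty acid synthesis (24 of 29), nutrient transport (18 of 26) and tight junctions (15 of 19) were higher in luminal cells. Most contractile (31 of 33), calcium signaling (24 of 35), focal adhesion (22 of 31) and basement membrane genes (22 of 25) were higher in basal cells. Of the 17078 genes of the table, 2901 were higher in basal cells (17%) and 1810 in luminal cells (10.6%), by limma with a term for each sort. Genes were called where the cell types differed by 2-fold or more and the p adjusted by Benjamini-Hochberg was under 0.01. These percentages are the background for each count of genes below. The 3 basal libraries were all above the 3 luminal ones for 4002 genes (23.4%) and all below for 2924 (17.1%). The median log2 fold change over all genes, basal minus luminal throughout, was 0.10. The R² of log2(CPM + 1) across genes, which are not independent replicates, was 0.870 to 0.906 between basal libraries, 0.867 to 0.899 between luminal libraries and 0.586 to 0.709 between the cell types. With only the 6 libraries of L3 in the model, which leaves 2 residual degrees of freedom, 790 and 444 genes were called. The p-values measure the spread between sorts of pooled mice.

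**Figure D1:**
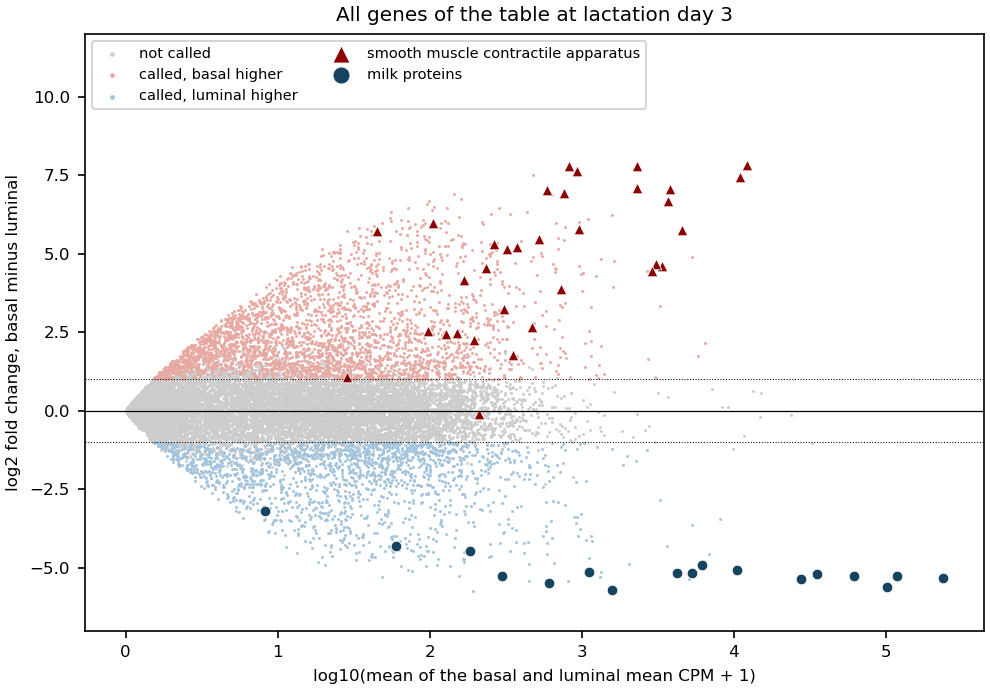
Each point is a gene of the table, with its level in the 6 libraries on the x axis (log10 of the mean of the basal and luminal mean CPM + 1) and the log2 fold change, basal minus luminal, on the y axis. Dotted lines mark a fold change of 2. Of the contractile apparatus genes (triangles), 31 of 33 were called higher in basal cells, and all 17 milk protein genes (circles) were called higher in luminal cells, most of them near a log2 fold change of -5.

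The labels of the cell types were first checked against markers, of which *Cd24a* and the integrin *Itgb1* (CD29) encode the antigens used for the sort and are no finding. Of 25 basal identity genes, 20 were higher in basal cells, 1 was higher in luminal cells and the median log2 fold change was 3.41. *Krt5*, the basal keratin, measured 3849, 3583 and 1403 CPM in basal and 198, 507 and 50.1 in luminal libraries (log2 fold change 3.96 ± 0.53 (SE), adjusted p = 2.8e-06). *Trp63*, the p63 factor that maintains basal cells, measured 755, 624 and 559 against 61.9, 184 and 21.4 CPM (3.33 ± 0.68 (SE), adjusted p = 0.00043). The groups did not overlap for either gene, yet luminal replicate 5 was the highest luminal library for both, and likewise for *Krt14* (138, 369 and 60.0 CPM). The basal transcription factor *Snai2* differed more, with 246, 345 and 219 against 11.9, 5.65 and 1.75 CPM (5.43 ± 0.36 (SE), adjusted p = 2.5e-10). Without replicate 6, *Trp63* lost its call (log2 fold change 2.67, adjusted p = 0.0135). *Tspan8*, a membrane protein that marks a subset of basal stem cells, was the member that was higher in luminal cells, at 2.73, 1.02 and 4.36 against 12.8, 11.9 and 15.8 CPM (-2.07 ± 0.39 (SE), adjusted p = 0.0002), and lost its call without the sort term (adjusted p = 0.0136). *Lgr5*, a stem cell receptor, was low in both, with 4.01, 1.14 and 5.29 against 1.08, 3.88 and 0 CPM and no call (adjusted p = 0.17), but was called without replicate 5 (1.96, adjusted p = 0.00417).

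Of 20 luminal identity genes, 12 were higher in luminal cells, 1 was higher in basal cells and the median was -2.35. The luminal keratin *Krt18* measured 73.5, 37.8 and 36.7 CPM in basal and 694, 941 and 437 in luminal libraries (-3.79 ± 0.36 (SE), adjusted p = 3.2e-08), and its partner *Krt8* 249, 181 and 72.3 against 409, 582 and 371 CPM (-1.58 ± 0.28 (SE), adjusted p = 9.7e-05). *Elf5*, the factor of the alveolar lineage, was at 26.7, 21.2 and 32.7 against 680.2, 360.4 and 899 CPM (-4.46 ± 0.53 (SE), adjusted p = 7e-07). In contrast, *Krt7* and *Krt19* were not called, with log2 fold changes of 0.17 and -0.39 (adjusted p = 0.72 and 0.47). *Krt19* measured 602, 538 and 295 CPM in basal and 778, 915 and 306 in luminal libraries, and the groups overlapped. Genes of hormone-sensing luminal cells gave a mixed picture. The estrogen receptor *Esr1* was higher in luminal cells, at 17.6, 11.4 and 8.44 against 64.2, 60.5 and 39.6 CPM (-2.07 ± 0.27 (SE), adjusted p = 2e-06). The progesterone receptor *Pgr* was the member that was higher in basal cells, at 23.5, 27.7 and 4.08 against 1.44, 7.18 and 0.701 CPM (2.24 ± 0.35 (SE), adjusted p = 1.9e-05), although the groups overlapped because basal replicate 6 lay below luminal replicate 5. Basal replicate 4 stood above the other basal libraries for *Cited1*, a transcriptional coregulator (190.5, 9.77 and 1.48 CPM against 481, 434 and 36.1 in luminal libraries), and for *Tph1*, which makes serotonin (92.3, 1.90 and 0.0928 against 212, 249 and 22.8 CPM).

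Markers of other cell types that the gate could hold were also measured, and basal replicate 6 stood apart in the fibroblast and pericyte sums. The 10 fibroblast markers summed to 1299, 2076 and 6891 CPM in basal and 133, 299 and 334 CPM in luminal libraries, and 8 of the 10 were higher in basal cells. The most abundant fibroblast marker was the collagen *Col1a1* at 164, 373 and 1769 CPM in basal libraries. The defining fibroblast receptor *Pdgfra* (CD140a), one of the antigens gated out, was near 0 in basal replicates 4 and 5 but not in replicate 6, at 1.84, 0.254 and 75.8 CPM, and the same held for the proteoglycan *Lum* (1.68, 1.14 and 130.4 CPM). Neither was called, but both were without replicate 5 (log2 fold changes 2.53 and 2.39, adjusted p = 0.00167 and 0.000533). The 10 pericyte and vascular smooth muscle markers summed to 2278, 4805 and 8348 CPM against 545, 624 and 265, with 9 of 10 higher in basal cells. Their most abundant gene was *Rgs5*, a regulator of G protein signaling, at 933, 2086 and 4749 CPM in basal libraries. None of the 10 was at 0 in all basal or in all luminal libraries.

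The 10 endothelial markers summed to 1014, 1047 and 1691 CPM in basal and 203, 698 and 244 CPM in luminal libraries, led by the cadherin *Cdh5* (281, 269 and 412 against 40.4, 155 and 47.0 CPM). Of these, *Cdh5*, *Eng* and *Esam* were called higher in basal cells. Without replicates 4, 5 and 6 in turn, 1, 5 and 1 of the 10 were called, against 7 without the involution day 2 libraries and 7 at an adjusted p under 0.05. *Cdh5* lost its call without replicate 4 (log2 fold change 1.95, adjusted p = 0.0578) and without replicate 6 (1.78, adjusted p = 0.075), as did *Eng* (2.27 and 2.00, adjusted p = 0.0251 and 0.0396). The call of *Cdh5* was also lost without the sort term (adjusted p = 0.0477), with the sort as a random effect (0.0241) and by edgeR (0.0152). *Pecam1* (CD31), another antigen gated out, measured 170.4, 169 and 248 against 20.02, 162 and 48.4 CPM (1.81 ± 0.69 (SE)) and was not called (adjusted p = 0.039), but was without the involution day 2 libraries (adjusted p = 0.00385). None of the 11 immune markers was called, and they summed to at most 345 CPM in any library, led by *Cd74*, while the pan-leukocyte gene *Ptprc* (CD45) measured 0.642, 1.27 and 20.2 against 0.361, 2.94 and 5.96 CPM. The 4 red blood cell markers summed to at most 71.9 CPM, without a call. Of 4 Schwann cell markers, 1 was higher in basal cells and 2 in luminal cells. The basal call was lost without replicate 4 or replicate 5, with a pseudocount of 0.1, by edgeR and in the L3 libraries alone. The luminal members were led by *Mbp*, which is also expressed outside the nervous system, at 15.6, 20.8 and 17.9 against 51.2, 77.2 and 70.8 CPM. Of 12 genes that respond to tissue dissociation, 5 were higher in basal cells, or 3 without replicate 5, among them *Egr1* (9696, 11282 and 10778 against 1859, 2191 and 3205 CPM) and *Nr4a1* (1023, 1441 and 1241 against 183, 232 and 107 CPM). In bulk libraries, more cells of a type and more RNA per cell cannot be told apart. Without replicate 6, 2475 genes were called higher in basal and 1707 in luminal cells. The part of these markers in the results below was not tested.

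**Figure D2:**
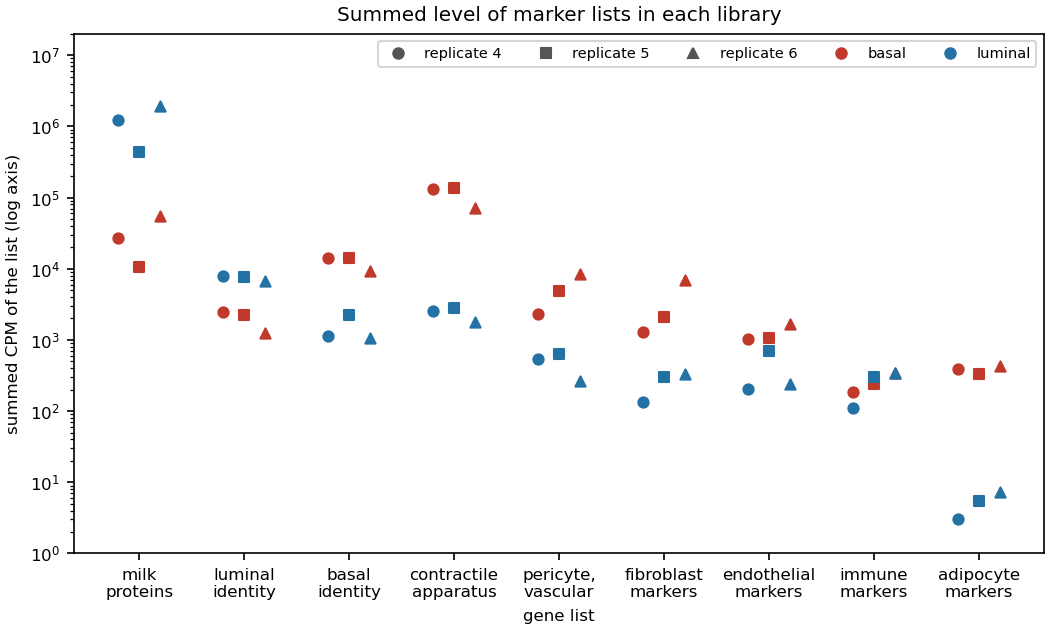
The summed CPM of 9 gene lists (x axis) is shown on a log y axis for each of the 6 libraries, basal in red and luminal in blue, with a symbol for each replicate. In basal replicate 6 (triangles) the fibroblast and pericyte sums were the highest of the 3 basal libraries, and the basal identity and contractile sums were the lowest.

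The milk proteins separated the cell types completely. All 17 were higher in luminal cells, against a background of 10.6% of all genes, with a median log2 fold change of -5.19 and a range from -5.69 to -3.17. *Csn2* measured 11408, 4626 and 19852 CPM in basal and 512152, 188022 and 688943 in luminal libraries (-5.32 ± 0.58 (SE), adjusted p = 2.1e-07). *Csn1s1* was at 3295, 1323 and 7337 against 164405, 59357 and 371139 CPM (-5.60 ± 0.57 (SE), adjusted p = 7.7e-08), and *Wap*, the whey acidic protein, at 836, 310.2 and 2671 against 41167, 10495 and 109769 CPM (-5.35 ± 0.40 (SE), adjusted p = 1.2e-09). Luminal replicate 5 had the least and luminal replicate 6 the most of each of the 3 genes, a spread of over 3-fold within the group, and the basal libraries followed the same order. Expressed as a share of the luminal library of the same sort, basal libraries held 2.23, 2.46 and 2.88% of the *Csn2* level, 2.00, 2.23 and 1.98% of that of *Csn1s1* and 2.37, 2.51 and 3.00% of that of *Glycam1*, a mucin-like whey protein. For *Ltf* (lactoferrin) the share was 2.57, 1.35 and 6.18%. The source of the milk RNA in the basal libraries was not tested.

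Of the same 17 genes, *Cel*, the bile salt-stimulated lipase of milk, measured 51.3, 20.6 and 122 against 3403, 1181 and 4714 CPM (-5.69 ± 0.48 (SE), adjusted p = 6.5e-09), and *Pigr*, which carries immunoglobulin A into milk, 18.1, 8.63 and 75.2 against 868, 719 and 1972 CPM (-5.47 ± 0.48 (SE), adjusted p = 1e-08). *Lalba*, the alpha-lactalbumin that turns galactosyltransferase into lactose synthase, was at 18.0, 11.8 and 14.2 against 479, 319 and 259.9 CPM (-4.47 ± 0.48 (SE), adjusted p = 1.6e-07). Outside that list, and named by its fold change, *Lao1*, an L-amino acid oxidase of mouse milk, was at 242, 70.3 and 466 against 9400.2, 3375 and 16965 CPM (-5.34 ± 0.57 (SE), adjusted p = 1.6e-07). *Chrdl2*, a secreted BMP antagonist also named by its fold change, measured 29.8, 6.98 and 27.6 against 1293, 507 and 842 CPM (-5.42 ± 0.47 (SE), adjusted p = 8.9e-09). For each of the 5 genes the groups did not overlap.

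Milk fat is made from fatty acids that the luminal cell synthesizes or takes up, and is released as membrane-coated globules. Of 12 genes of globule formation and lipid secretion, 8 were higher in luminal cells and 1 in basal cells (median -3.70). *Cidea*, a lipid droplet protein, had the most negative log2 fold change of the luminal genes named by rule, -5.74 ± 0.41 (SE), with 3.85, 0.634 and 23.8 CPM in basal and 367, 129 and 629 in luminal libraries (adjusted p = 5.7e-10). *Btn1a1* and *Xdh*, which join at the globule surface, were at -5.23 and -3.75 (adjusted p = 8.1e-08 and 7.8e-11), and lipoprotein lipase *Lpl* at -4.10 (adjusted p = 7.6e-10). The fatty acid transporter *Cd36* measured 256, 219 and 482 against 1439.7, 675 and 2162 CPM, with no overlap between the groups (-2.09 ± 0.66 (SE)). It was not called in the fit to all libraries (adjusted p = 0.014), but was without the involution day 2 libraries (adjusted p = 0.00403) and in the lactation day 3 libraries alone (adjusted p = 0.00593). The lipoprotein receptor *Vldlr* was the member that was higher in basal cells, at 85.7, 78.7 and 43.4 against 14.1, 14.5 and 40.0 CPM (1.67 ± 0.46 (SE), adjusted p = 0.0059). It lost its call without replicate 4 (1.24, adjusted p = 0.0907) and without replicate 5 (1.32, adjusted p = 0.0705).

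Of 29 genes of fatty acid and triglyceride synthesis, 24 were higher in luminal cells and 1 in basal cells (median -2.07). Fatty acid synthase *Fasn* measured 339, 209.9 and 402 against 8195, 2649.5 and 10083 CPM (-4.30 ± 0.30 (SE), adjusted p = 4e-10). Its substrate is made by *Acaca*, at 53.7, 29.8 and 40.6 against 694, 303 and 595 CPM (-3.60 ± 0.23 (SE), adjusted p = 1.6e-10). *Olah*, the thioesterase that ends synthesis at the medium chains typical of milk, was at 7.94, 2.79 and 19.6 against 194, 94.8 and 685 CPM (-4.72 ± 0.39 (SE), adjusted p = 4.2e-09), and the desaturase *Scd1* at -4.57 (adjusted p = 1.7e-10). The lipogenic factor *Srebf1* was higher in luminal cells, at 130.4, 129.5 and 99.9 against 969.9, 497 and 227 CPM (-1.997 ± 0.33 (SE), adjusted p = 4e-05). In contrast, *Pparg*, the adipogenic nuclear receptor, was higher in basal cells, at 18.7, 19.3 and 49.9 against 10.5, 11.4 and 2.45 CPM (1.79 ± 0.46 (SE), adjusted p = 0.0034). Basal replicate 6 was the highest for it, and without that replicate the call was lost (0.74, adjusted p = 0.164), as it was without the sort term (1.79, adjusted p = 0.0103), with a pseudocount of 0.1 (0.013) and by edgeR (0.0187). Of the acyltransferases that end triglyceride synthesis, *Dgat1* was higher in luminal cells (-1.76, adjusted p = 4.1e-05), while *Dgat2* had a log2 fold change of 0.81 and no call (adjusted p = 0.081).

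Of 22 cholesterol synthesis genes, 10 were higher in luminal cells and 1 in basal cells, and the median was -0.98. *Srebf2*, the factor that drives the pathway, was the exception and was higher in basal cells, at 456, 419 and 181 against 157, 192 and 70.1 CPM (1.34 ± 0.23 (SE), adjusted p = 5.5e-05), although basal replicate 6 lay below luminal replicate 5. The rate-limiting epoxidase *Sqle* was not called (adjusted p = 0.096).

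Lactose synthesis and glucose uptake were less uniform. Of 15 genes, 6 were higher in luminal cells and none in basal cells (median -0.64). *B4galt1*, the galactosyltransferase of lactose synthase, measured 143, 93.9 and 184 against 2249, 1037 and 1791 CPM (-3.57 ± 0.20 (SE), adjusted p = 3.9e-11). The glucose transporter *Slc2a1* was at 252, 236 and 223 against 1231, 1164 and 498 CPM (-1.91 ± 0.35 (SE), adjusted p = 0.00013). Hexokinase 2 (*Hk2*) was called, at 28.0, 24.7 and 17.8 against 130.4, 169.8 and 155 CPM (-2.65 ± 0.41 (SE), adjusted p = 1.7e-05), and hexokinase 1 (*Hk1*) was not (-0.47, adjusted p = 0.13).

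Among 26 transporters of minerals, amino acids and other nutrients, 18 were higher in luminal cells and 2 in basal cells (median -2.21). The phosphate transporter *Slc34a2* measured 40.3, 14.3 and 56.5 against 2120.4, 679.9 and 1969 CPM (-5.42 ± 0.47 (SE), adjusted p = 9e-09), and *Slc28a3*, which takes up nucleosides, 80.0, 37.9 and 85.1 against 3115, 1801 and 2791 CPM (-5.27 ± 0.46 (SE), adjusted p = 1e-08). Calcium pumps divided between the cell types. *Atp2b2*, the pump that moves calcium into milk, was at 8.66, 9.64 and 16.9 in basal and 383, 116 and 474 CPM in luminal libraries (-4.50 ± 0.48 (SE), adjusted p = 1.6e-07). The related pump *Atp2b4* was at 476, 761 and 456 in basal and 27.2, 60.5 and 16.5 CPM in luminal libraries (4.14 ± 0.38 (SE), adjusted p = 1.8e-08). *Slc30a2*, the zinc exporter of milk vesicles, was near 0 in basal libraries at 0.321, 0.127 and 0.186 CPM, and at 11.7, 6.24 and 87.0 CPM in luminal libraries (-4.05 ± 0.50 (SE), adjusted p = 1.1e-06). The sodium-proton exchanger *Slc9a4*, named by its fold change, was at 0.802, 0.254 and 3.90 against 137, 46.5 and 96.8 CPM (-5.27 ± 0.36 (SE), adjusted p = 4.1e-10).

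**Figure D3:**
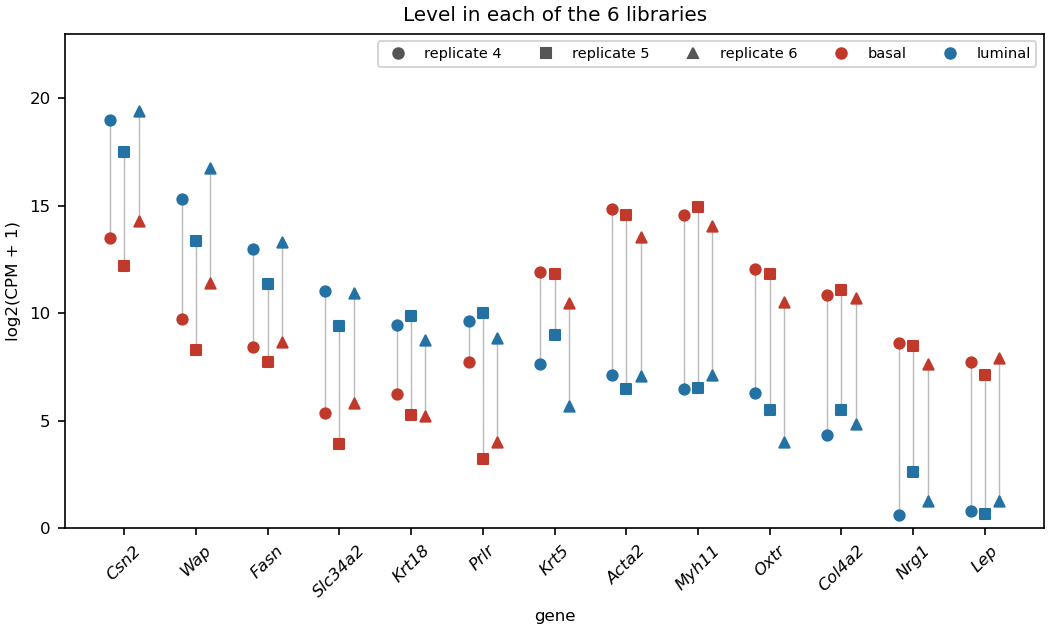
The log2(CPM + 1) of 13 genes (x axis) in each of the 6 libraries, basal in red and luminal in blue, with a grey line joining the libraries of a sort. For *Csn2*, *Wap*, *Fasn*, *Slc34a2*, *Krt18* and *Prlr* the 3 luminal libraries lay above the 3 basal ones, and for the other 7 genes below. *Prlr* is high in basal replicate 4 and *Krt5* in luminal replicate 5.

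Of 16 genes of prolactin and STAT5 signaling, 5 were higher in luminal cells and 1 in basal cells (median -0.40). Without replicate 4 or replicate 6, 3 were called higher in luminal cells, and without replicate 5 the median was -0.72. The prolactin receptor *Prlr* measured 213, 8.25 and 14.9 CPM in basal and 799, 1016 and 466 in luminal libraries (-4.52 ± 0.63 (SE), adjusted p = 5.6e-06), and most of its basal reads were in replicate 4. *Stat5a*, which carries the prolactin signal to the nucleus, was at 44.4, 59.8 and 39.7 against 115, 73.5 and 214 CPM (-1.35 ± 0.33 (SE), adjusted p = 0.0022), and its call was lost without replicate 4 (-1.35, adjusted p = 0.0152) and without replicate 6 (-0.82, adjusted p = 0.0792). *Socs3*, a feedback inhibitor of cytokine signaling, was higher in basal cells, at 1111, 1284 and 1028 against 218, 189.8 and 683 CPM (1.89 ± 0.33 (SE), adjusted p = 7e-05).

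Of 36 genes of the secretory pathway and protein folding, 19 were higher in luminal cells and none in basal cells, and the median log2 fold change was -1.08. *Xbp1*, the factor of the unfolded protein response in secretory cells, measured 129.6, 112 and 93.7 against 788, 498 and 513 CPM (-2.39 ± 0.21 (SE), adjusted p = 1.2e-08). The casein kinase of the Golgi, *Fam20c*, was at 21.7, 17.5 and 13.3 against 241, 140.1 and 268 CPM (-3.53 ± 0.46 (SE), adjusted p = 2.1e-06). The translocon subunit *Sec61a1* was at -1.55 (adjusted p = 7.7e-06), and the chaperone *Hspa5* missed the minimum fold at -0.98 (adjusted p = 0.003) and was called without replicate 6 (-1.28, adjusted p = 0.00139).

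Epithelial tight junctions, which seal the alveolus against leakage of milk, were a luminal group. Of 19 junction and polarity genes, 15 were higher in luminal cells and none in basal cells (median -3.49). *Cldn3* measured 5.69, 2.41 and 5.01 against 109, 108 and 90.5 CPM (-4.32 ± 0.51 (SE), adjusted p = 5.5e-07), *Cldn4* 29.0, 7.61 and 8.81 against 705, 639 and 88.4 CPM and *Cldn7* 4.89, 0.634 and 1.02 against 58.1, 77.8 and 49.8 CPM. The polarity gene *Pard6b* was at 4.33, 4.06 and 6.87 against 184, 194 and 169 CPM (-4.94 ± 0.39 (SE), adjusted p = 2.5e-09). The scaffold *Tjp1* was not called, at 286, 291 and 326 against 269, 291 and 293 CPM (log2 fold change 0.08 ± 0.23 (SE)), whereas its relative *Tjp3* was at 3.21, 0 and 0.186 against 34.1, 33.6 and 58.9 CPM (-4.61 ± 0.51 (SE), adjusted p = 2.3e-07).

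On the basal side, the contractile apparatus of smooth muscle led. Of 33 genes, 31 were higher in basal cells, against a background of 17%, and the median log2 fold change was 5.22. Of the 10 called genes with the largest log2 fold changes towards basal cells and no overlap between the groups, 9 belong to this list. *Myh11*, the smooth muscle myosin heavy chain, measured 24319.5, 31707 and 17227 CPM in basal and 87.5, 90.1 and 137 in luminal libraries, a 228-fold difference (7.84 ± 0.46 (SE), adjusted p = 5.1e-11). *Acta2*, smooth muscle actin, was at 29688, 24157 and 12014 against 137, 88.2 and 135 CPM (7.43 ± 0.43 (SE), adjusted p = 5.1e-11), and the close relative *Actg2*, whose reads may be split from *Acta2* with some uncertainty, at 2217, 1897 and 825 against 4.87, 4.71 and 8.42 CPM (7.80 ± 0.63 (SE), adjusted p = 3.7e-09). Calponin *Cnn1*, which binds actin and restrains myosin, was at 6103, 5277 and 2441 against 17.1, 12.9 and 27.4 CPM (7.80 ± 0.55 (SE), adjusted p = 6e-10). In each of these 4 genes basal replicate 6 was the lowest of the basal libraries and still over 80-fold above the highest luminal library. Replicate 6 was also the basal library with the most fibroblast and pericyte marker RNA, and pericytes and vascular smooth muscle use many of the same contractile genes. Over the whole list the basal libraries summed to 132277, 137254 and 71748 CPM, and 31 genes were called without replicate 6. The pericyte and the contractile sum were both higher in replicate 5 than in replicate 4, and the pericyte sum was highest in replicate 6, where the contractile sum was lowest. The part of pericytes in the contractile difference was not tested.

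The kinase and light chain that start contraction went with the filaments. *Mylk*, myosin light chain kinase, measured 8712, 8718 and 5117 against 56.1, 51.0 and 54.4 CPM (7.06 ± 0.41 (SE), adjusted p = 5.1e-11), and its substrate *Myl9*, whose promoter is printed above, 5111, 5645 and 2949 against 37.3, 25.7 and 32.6 CPM (7.08 ± 0.51 (SE), adjusted p = 7.8e-10). Leiomodin *Lmod1*, which nucleates actin, was at 1059, 1674 and 792 against 8.84, 6.47 and 7.36 CPM (7.04 ± 0.53 (SE), adjusted p = 1.3e-09). *Synpo2* and *Synm*, which anchor and link filaments, had log2 fold changes of 7.64 and 6.93 (adjusted p = 4e-11 and 1.4e-09). Their transcriptional regulators were also unequal. *Srf* measured 381, 332 and 244 against 61.7, 102 and 43.1 CPM (2.26 ± 0.24 (SE), adjusted p = 1.1e-07), while its coactivator *Myocd* (myocardin) was at 38.0, 99.5 and 126 against 0.180, 0.353 and 1.05 CPM (5.74 ± 0.58 (SE), adjusted p = 6.9e-08) and, unlike the filament genes, was lowest in basal replicate 4. The related coactivator *Mrtfb* was not called, at 195, 148 and 274 against 212, 220.0 and 211 CPM (adjusted p = 0.8). The only other member without a call, the phosphatase inhibitor *Ppp1r14a*, had a log2 fold change of 1.07 ± 0.34 (SE) (adjusted p = 0.016). It was called with the sort as a random effect (adjusted p = 0.00851) and by edgeR (1.12, adjusted p = 0.00466).

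Of 30 receptors through which hormones and transmitters act on contraction, 13 were higher in basal cells, 2 in luminal cells and 15 were not called. Of these, 6 were called higher in basal cells when genes under a mean of 5 CPM were left out, and 1 in luminal cells without replicate 4 or replicate 5. The oxytocin receptor *Oxtr* measured 4323, 3617 and 1486 CPM in basal and 76.1, 44.6 and 15.1 in luminal libraries (6.22 ± 0.62 (SE), adjusted p = 5.9e-08). Its basal level in replicate 6 was less than that in replicates 4 and 5, and the groups were far apart. *Ednra*, an endothelin receptor of smooth muscle, was at 110.1, 159 and 336 against 2.71, 13.8 and 4.56 CPM (4.76 ± 0.50 (SE), adjusted p = 1.4e-07), and the vasopressin receptor *Avpr1a* at 43.6, 106 and 131 against 18.6, 20.01 and 7.01 CPM (2.52 ± 0.59 (SE), adjusted p = 0.0014). Both were highest in basal replicate 6, as the pericyte sum was, and *Avpr1a* lost its call without that replicate (1.77, adjusted p = 0.0444), with a pseudocount of 0.1 (0.0193) and by edgeR (0.0108). The sphingosine phosphate receptor *S1pr3* was at 93.0, 230.2 and 216 against 4.87, 4.12 and 2.81 CPM (5.11 ± 0.45 (SE), adjusted p = 1.1e-08), and *P2rx1*, a cation channel opened by ATP, was at 32.4, 39.6 and 38.7 CPM in basal libraries and at 0, 0.235 and 0 CPM in luminal libraries. The adrenergic receptor *Adra1a* had 19.7, 14.6 and 7.52 against 39.7, 53.3 and 16.8 CPM (-1.28 ± 0.48 (SE)) and no call (adjusted p = 0.035), though it was called without the involution day 2 libraries (adjusted p = 0.00482).

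Of 35 genes that carry the calcium and relaxation signals, 24 were higher in basal cells and 3 in luminal cells (median 2.49). The large-conductance potassium channel, which limits contraction, was represented by *Kcnma1* at 146, 169 and 64.0 against 0.721, 0.471 and 1.05 CPM (6.09 ± 0.46 (SE), adjusted p = 1.5e-09) and its subunit *Kcnmb1* at 246, 276 and 105 against 3.07, 0.471 and 0.701 CPM (6.48 ± 0.57 (SE), adjusted p = 1.1e-08). The nitric oxide receptor guanylate cyclase had log2 fold changes of 6.18 for *Gucy1a1* and 5.97 for *Gucy1b1* (adjusted p = 7.8e-11 and 1.1e-09). *Cacna1c*, the L-type calcium channel, was at 124, 145 and 201 against 11.5, 5.06 and 2.81 CPM (4.55 ± 0.52 (SE), adjusted p = 4.4e-07). The list summed to 6037, 7909 and 9512 CPM in basal libraries, and its most abundant member was *Rgs5*, which is also on the pericyte list. Without *Rgs5* the sums were 5104, 5823 and 4763 CPM, so that replicate 6 was no longer the highest. The part of pericytes in these values was not tested. Calcium release channels divided between the layers, with *Itpr1* higher in basal cells (1.42, adjusted p = 9.9e-05) and *Itpr2* and *Itpr3* higher in luminal cells (-1.61 and -1.73, adjusted p = 2.6e-05 and 9.1e-08). *Orai1*, the calcium entry channel of the plasma membrane, was the third luminal member, at 25.8, 17.5 and 25.7 against 265, 139 and 173 CPM (-2.98 ± 0.34 (SE), adjusted p = 4.2e-07). The G protein *Gnaq*, downstream of the oxytocin receptor, was not called (0.64, adjusted p = 0.016).

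Basement membrane genes were mostly higher in basal cells. Of 25 basement membrane genes, 22 were higher in basal cells and none in luminal cells (median 3.19). The collagen IV chains *Col4a1* and *Col4a2* measured 1430.4, 1531 and 1488 against 18.8, 68.9 and 28.8 CPM and 1853, 2136 and 1688 against 18.9, 43.9 and 27.4 CPM (6.00 ± 0.27 (SE) for *Col4a2*, adjusted p = 5.4e-12). Both chains varied little among the 3 basal libraries. *Lama1* and *Lama3*, laminin chains, had log2 fold changes of 4.93 and 5.50 (adjusted p = 5.7e-10 and 4.6e-11), and the proteoglycan perlecan (*Hspg2*) 4.30 (adjusted p = 1.5e-11). *Sparc*, a collagen-binding glycoprotein, was at 10741, 10304 and 9929.8 against 262, 472 and 329 CPM. The secreted collagen-binding proteoglycan *Fmod*, named by its fold change, was at 1147, 1047 and 646 against 3.61, 2.71 and 6.66 CPM (7.50 ± 0.37 (SE), adjusted p = 1.3e-11).

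Of 31 integrin and focal adhesion genes, 22 were higher in basal cells and none in luminal cells (median 1.85). *Itga1*, which binds collagen, measured 317, 335 and 312 against 3.97, 5.06 and 16.1 CPM (5.33 ± 0.37 (SE), adjusted p = 5e-10), and *Itga5*, which binds fibronectin, 638, 549 and 228 against 26.5, 48.1 and 8.77 CPM (4.19 ± 0.40 (SE), adjusted p = 3.3e-08). Talin (*Tln1*), which couples integrins to actin, had a log2 fold change of 3.06 (adjusted p = 1.4e-10). *Itga6*, the laminin receptor chain of hemidesmosomes, was not called, at 1269, 959.6 and 548 against 597, 471 and 276 CPM (1.03 ± 0.32 (SE), adjusted p = 0.013), but was called without the involution day 2 libraries (adjusted p = 4.66e-05). Of 23 cadherins, connexins and desmosome genes, 9 were higher in basal and 6 in luminal cells. E-cadherin *Cdh1* was higher in luminal cells (279.8, 229.7 and 116 against 771, 964 and 352 CPM, -1.71 ± 0.25 (SE), adjusted p = 7.4e-06), and N-cadherin *Cdh2* and P-cadherin *Cdh3* in basal cells (5.35 and 5.04, adjusted p = 1.1e-09 and 4.1e-06). The gap junction genes *Gjb1* and *Gjb2* were higher in luminal cells (-4.26 and -4.63, adjusted p = 4.5e-10 and 2.1e-06).

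**Figure D4:**
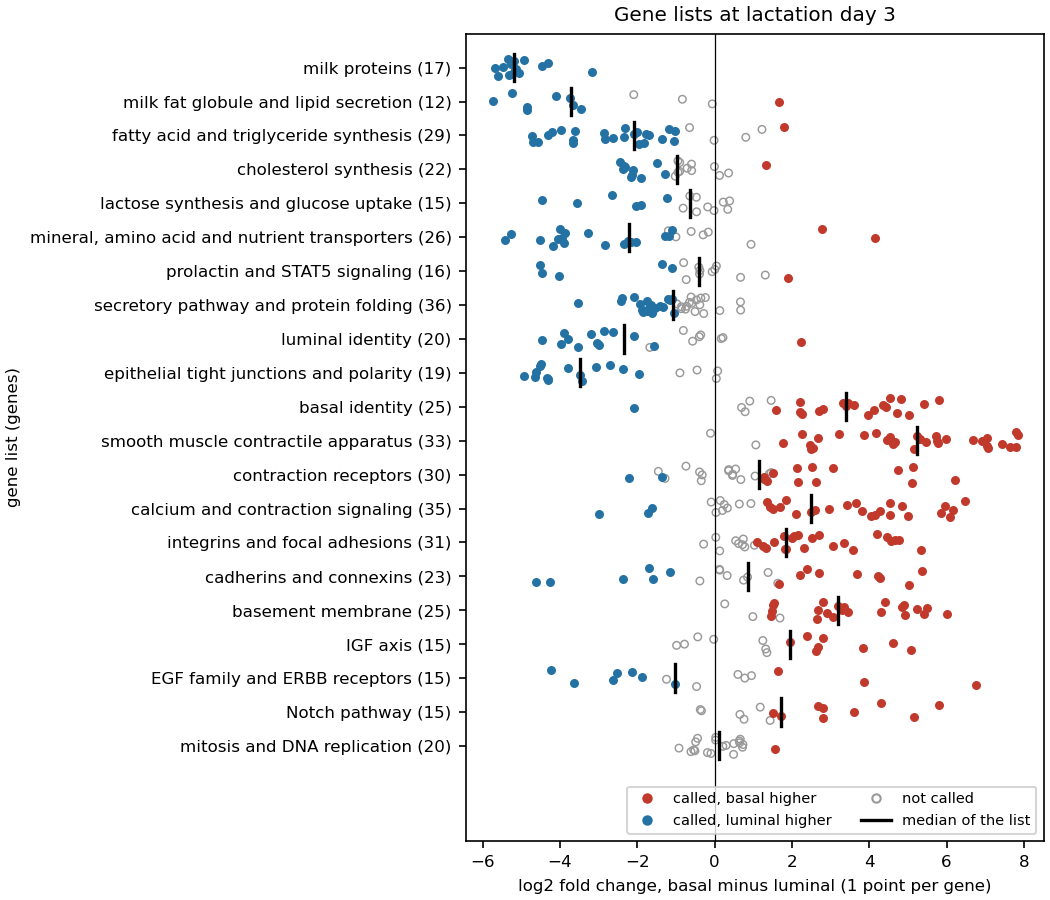
Each point is a gene of one of 21 lists (y axis, number of genes in parentheses), placed by its log2 fold change, basal minus luminal (x axis), filled where it was called, and the black bar is the median of the list. The milk protein list is the most negative, with a median of -5.19, and the contractile apparatus the most positive, with 5.22, while the mitosis genes are spread around 0.

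Of 15 genes of the EGF family, 3 were higher in basal cells (against a background of 17%) and 7 in luminal cells, or 4 in luminal cells without replicate 5. Neuregulin *Nrg1*, a ligand of ERBB3 and ERBB4, measured 395, 359 and 195 CPM in basal and 0.541, 5.06 and 1.40 in luminal libraries (6.75 ± 0.45 (SE), adjusted p = 3.1e-10). Its receptors had the opposite pattern, with *Erbb3* at 15.3, 1.65 and 11.0 against 146, 113 and 202 CPM (-4.23 ± 0.46 (SE), adjusted p = 2e-07) and *Erbb4* at 13.2, 0 and 1.48 against 43.5, 52.5 and 27.0 CPM (-3.63 ± 0.55 (SE), adjusted p = 1.4e-05). *Egfr* was higher in basal cells, at 401, 301 and 232 against 102, 136 and 64.2 CPM (1.65 ± 0.36 (SE), adjusted p = 0.00076), and lost its call without replicate 4 (1.49, adjusted p = 0.0126).

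Of 15 genes of the Notch pathway, 9 were higher in basal cells and none in luminal cells. The ligands *Dll1* and *Jag1* measured 268, 284 and 137 against 1.26, 5.89 and 2.81 CPM (5.82 ± 0.38 (SE), adjusted p = 2.4e-10) and 243, 376 and 323 against 29.6, 48.4 and 9.82 CPM (3.61 ± 0.36 (SE), adjusted p = 7e-08). *Notch3*, which is also a pericyte marker, was higher in basal cells, and its basal level was lowest in replicate 4 and highest in replicate 6, at 301, 1003 and 1298 CPM, as was the pericyte sum. The target *Heyl* was at 50.4, 173 and 151 against 4.33, 0.824 and 2.10 CPM (5.16 ± 0.53 (SE), adjusted p = 8.5e-08).

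In the IGF axis, 8 of 15 genes were higher in basal cells and none in luminal cells. The receptor *Igf1r* measured 91.2, 98.2 and 122 against 18.6, 40.3 and 8.42 CPM (2.40 ± 0.34 (SE), adjusted p = 6e-06), and the binding protein *Igfbp2* 665, 433 and 181 against 17.9, 22.01 and 2.10 CPM (5.08 ± 0.51 (SE), adjusted p = 7e-08). *Igfbp5*, a binding protein of the secretory epithelium, was at 1677, 1514 and 1939 in basal and 6061, 6056 and 1034 CPM in luminal libraries, without a call (adjusted p = 0.09). Luminal replicates 4 and 5 were above every basal library, and luminal replicate 6 was below. Without replicate 6 it was called higher in luminal cells (-1.93, adjusted p = 0.00168). Of 20 genes of mitosis and DNA replication, 1 was higher in basal cells, the cyclin *Ccna2* (18.1, 18.9 and 18.7 against 2.89, 9.42 and 6.31 CPM, adjusted p = 0.0048). Its call was lost without replicate 4 (1.18, adjusted p = 0.0745) and without replicate 6 (1.62, adjusted p = 0.0191). It was also lost without the sort term (adjusted p = 0.0775), with the sort as a random effect (0.0384) and by edgeR (0.013). Without replicate 5, 3 of the 20 were higher in basal cells, and without replicate 6, 1 was higher in luminal cells. The proliferation marker *Mki67* measured 50.7, 83.2 and 109 against 77.9, 99.0 and 214 CPM and was not called (adjusted p = 0.11).

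*Lep*, the gene for the adipocyte hormone leptin, measured 209.7, 138 and 238 CPM in basal libraries and 0.721, 0.589 and 1.40 in luminal libraries (6.67 ± 0.46 (SE), adjusted p = 3.8e-10). It is among the 4 adipocyte markers with values, of 8 listed, and 3 of the 4 were higher in basal cells. The others were the lipid droplet coat proteins *Plin4* (179, 178 and 187 against 2.34, 4.83 and 5.96 CPM) and *Plin1* (2.01, 19.7 and 6.31 against 0, 0.118 and 0 CPM), and *Adrb3*, the receptor specific to fat cells, which had 0.321, 0.127 and 3.53 CPM in basal libraries and 0 in each luminal library. The list summed to 391, 335 and 435 CPM in basal and 3.07, 5.53 and 7.36 CPM in luminal libraries. Other defining adipocyte genes, such as the adiponectin gene, were not analysed here, and the part of adipocytes in the *Lep* level was not tested.

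To find what differed at L3 from the rest of the cycle, the difference between the cell types at L3 was tested against the mean difference at the other 7 time points. It was more basal for 513 genes (3% of those tested) and more luminal for 401 (2.35%). The fit drops 1 luminal library at P14.5 and 1 at L10 whose partner has no values. L3 and L10 were amplified in the same batch and the other time points in other batches, so batch and time cannot be told apart here, although the cell types of a sort shared theirs. Without the Id2 libraries, where the *Acta2* difference was the smallest of the 8 time points (4.27), 782 and 578 genes were called. The total of 914 genes was 553 without replicate 4 and 419 by edgeR.

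Of the 33 contractile genes, 16 were more basal at L3 than at the other time points, and the median change over the list was 1.31. Of the 10 pericyte and vascular smooth muscle markers, 4 were more basal at L3, and their median change was 1.49. The part of pericytes in the contractile change was not tested. The 2 most abundant contractile genes, *Myh11* and *Acta2*, were not among the 16. *Acta2* had a log2 difference of 7.43 at L3, 7.37 at W10 and 8.82 at P14.5, and its change was 0.35 ± 0.47 (SE), without a call (adjusted p = 0.68). Its mean level was 21953 CPM at L3 and 10174 at W10 in basal cells, and 120.1 and 62.2 CPM in luminal cells. *Pdlim3*, a Z-disc adaptor, had a change of 3.31 ± 0.49 (SE) (adjusted p = 0.00018), with basal means of 1016 CPM at L3 and 566 at W10 and luminal means of 24.8 and 106. *Ppp1r12b*, a subunit of myosin phosphatase, changed by 3.00 ± 0.42 (SE) (adjusted p = 0.00011), from a basal mean of 90.5 CPM at W10 to 625 at L3. *Oxtr* was at 3142 CPM in basal cells at L3, 1665 at W10, 502 at P14.5 and 35.3 at Id2, and its change was 2.39 ± 0.67 (SE), without a call (adjusted p = 0.02).

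The 5 genes with the largest change towards basal cells were *Lep*, *Tnni2*, *Npr3*, *Itprid1* and *Dmpk*. *Lep* was at 195 CPM in basal cells at L3 and 222 at L10, and at most 3.93 CPM at the other 6 time points (change 4.93 ± 0.49 (SE), adjusted p = 4e-06). *Tnni2*, a troponin of fast skeletal muscle, measured 96.0, 66.6 and 19.5 CPM in basal and 0.180, 0.118 and 3.16 in luminal libraries at L3, and its basal mean was 7.62 CPM at L10 and at most 0.312 at the other 6 time points (change 4.68 ± 0.52 (SE), adjusted p = 1.4e-05). *Npr3*, the clearance receptor of natriuretic peptides, was at 114, 48.1 and 46.5 against 0.180, 1.18 and 2.10 CPM at L3, with a basal mean of 37.5 CPM at L10 (change 4.12 ± 0.58 (SE), adjusted p = 0.00013). The myotonic dystrophy kinase *Dmpk* measured 201, 286 and 92.7 against 7.03, 3.88 and 3.16 CPM, with a basal mean of 193 CPM at L3, 257 at L10 and 5.87 at W10 (change 4.11 ± 0.58 (SE), adjusted p = 0.00012). *Itprid1* had a basal mean of 78.4 CPM and a luminal mean of 3.53 at L3. Its means were 96.0 and 79.9 CPM at W10, 9.66 and 7.41 at P14.5, 61.1 and 21.9 at L10 and 3.37 and 30.6 at Id2 (change 4.11 ± 0.36 (SE), adjusted p = 6.7e-07).

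The luminal genes *Pgr*, *Krt19* and *Krt7* also moved in the basal direction. *Pgr* had a luminal mean of 3.11 CPM at L3 and 139 at W10, and a basal mean of 18.4 and 34.4 (change 3.27 ± 0.37 (SE), adjusted p = 1.6e-05). *Krt19* had luminal means of 666 CPM at L3 and 2043 at W10 and basal means of 479 and 339 (change 2.20 ± 0.44 (SE), adjusted p = 0.0023). *Krt7* had a change of 2.85 ± 0.36 (SE) (adjusted p = 4.9e-05), with luminal means of 54.9 and 184 CPM and basal means of 52.7 and 17.9 CPM.

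In the luminal direction, lipid synthesis was the list with the most genes, 16 of 29 genes of fatty acid and triglyceride synthesis. *Fasn* had luminal means of 414 CPM at W10, 2006 at P14.5, 6976 at L3 and 3328 at L10, with basal means between 146 and 449.6 CPM over the 8 time points (change -2.35 ± 0.32 (SE), adjusted p = 8.9e-05). Of the 17 milk proteins, 6 were called. *Csn2* was higher in luminal cells at each of the 8 time points, with a log2 difference of -3.13 at P14.5 and -5.32 at L3, and its change was not called (-1.38 ± 0.62 (SE), adjusted p = 0.15). Transporters counted 9 of 26. *Atp2b2* had a luminal mean of 324 CPM at L3 and 127 at L10 and of at most 13.9 at the other 6 time points (change -3.43 ± 0.52 (SE), adjusted p = 0.00022).

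The 5 genes with the largest change towards luminal cells were *Slc39a8*, *Krt79*, *Sfrp2*, *Lpo* and *Apod*, and each had a mean difference above 0 at 1 or more other time points. *Slc39a8*, an importer of zinc and manganese, measured 46.4, 15.2 and 65.2 against 883, 438 and 774 CPM at L3, while its basal and luminal means were 10.3 and 2.29 CPM at W10 and 72.3 and 839 at L10 (change -4.65 ± 0.39 (SE), adjusted p = 4.1e-07). *Lpo*, the lactoperoxidase of milk, was at 2.89, 2.92 and 7.42 against 112, 48.4 and 179 CPM (change -4.17 ± 0.35 (SE), adjusted p = 4.1e-07). *Apod*, a lipocalin, was at 71.9, 54.8 and 223 against 2672, 3462 and 536 CPM at L3, with luminal replicate 6 well below the other luminal libraries, and had a log2 difference of 6.22 at P14.5 and -4.64 at L10 (change -4.08 ± 0.80 (SE), adjusted p = 0.0019). *Sfrp2*, a secreted inhibitor of Wnt signaling, was at 2.09, 0.254 and 7.33 against 55.2, 59.5 and 119.6 CPM and had a log2 difference of 3.99 at P14.5 and -3.75 at L10 (change -4.28 ± 0.62 (SE), adjusted p = 0.00015). The keratin *Krt79* measured 2.65, 0.761 and 2.13 against 49.6, 145 and 40.0 CPM (change -4.42 ± 0.66 (SE), adjusted p = 0.00019), with luminal replicate 5 the highest, and its luminal mean was 111 CPM at L10.

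**Figure D5:**
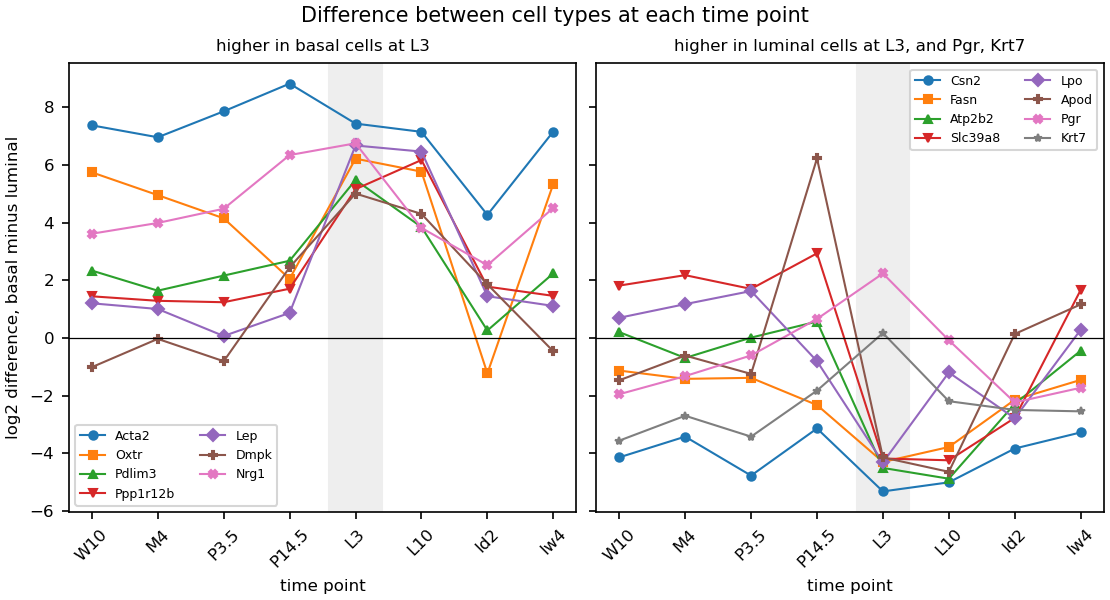
The log2 difference, basal minus luminal, of 15 genes (y axis) at each of the 8 time points (x axis) is the mean over the sorts of that time point, 2 or 3 each, without error bars, and L3 is shaded. *Lep* and *Dmpk* are highest at L3 and L10, *Acta2* stays above 4 throughout, and *Slc39a8*, *Atp2b2* and *Apod* pass to the luminal side at L3, where *Pgr* lies at 2.24.

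Between L3 and L10, the nearest time point, the difference between the cell types changed for few genes, 71 towards basal cells at L3 (0.416%) and 16 towards luminal cells (0.0937%), with 2 basal libraries at L10. The L3 and the L10 libraries were run on different sequencing lanes, so lane and time cannot be told apart in this comparison. The cell types of a sort shared their lane. *Lpo* was more luminal at L3 (change -3.12, adjusted p = 0.0031) and *Itprid1* more basal (2.92, adjusted p = 0.0058). The *Lpo* call was lost without the sort term, with the sort as a random effect and without replicate 4. It was also lost with a pseudocount of 0.1 and by edgeR. Of the gene lists, 4 of 10 fibroblast markers were more basal at L3, among them *Col1a1* (3.04, adjusted p = 0.0024), for which basal replicate 6 was far the highest at L3, as it was for the fibroblast sum. None of the 10 was called without the sort term or with the sort as a random effect, and 2 were by edgeR. Without replicates 4, 5 and 6 in turn, 3, 6 and 4 of the 10 were called. None of the 33 contractile genes was called between L3 and L10, and of the 17 milk proteins only *Lpo* was, with the losses given above. The total of 87 genes was 8 by edgeR, 29 without replicate 4, 190 without replicate 5 and 468 at an adjusted p under 0.05.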

How the data were processed

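The authors aligned the reads to the mouse genome (NCBI Build 37) with GSNAP, counted reads per Ensembl gene with HTSeq and deposited a signal per gene, the counts scaled by the effective library size of edgeR (CPM). They had removed genes with very few reads and a set of highly abundant genes. Libraries were amplified with a kit that does not mark strand, so that a gene and an antisense partner cannot be told apart, and without molecular identifiers. Whole reads were recovered from the steps of the values (100% of values within 0.01 reads). The sort of 1 luminal library at W10, whose step is close to a power of 10, was left out of the edgeR alternative.

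Values were analysed as log2(CPM + 1) with limma (version 3.58.1, R 4.3.3), with a trend of the variance on the mean, in 44 libraries forming 22 pairs of a basal and a luminal library of 1 sort. The model had a term for each sort and a basal minus luminal difference for each of the 8 time points, with 14 residual degrees of freedom, and 1 luminal library at P14.5 and 1 at L10 whose partner has no values were dropped. The pairing comes from the sort date and the replicate number in the labels. The deviations of paired libraries from their group means correlated across genes in 21 of 22 pairs (median 0.305, at L3 0.0919 to 0.182). Genes that differed by 2-fold or more, with a p under 0.01 after Benjamini-Hochberg adjustment over 17078 genes, were called. Log2 fold changes of genes near 0 CPM are understated by the pseudocount. The fits were tested on simulated data before use.

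Genes named in the text are the 10 in each direction with the largest log2 fold change among called genes with a mean of at least 10 CPM and no overlap between groups, the 5 in each direction with the largest change from the other time points, and members of 29 gene lists, of which 544 of 558 members have values. Some members are not reported here. The members, lists and tests were chosen with earlier results of these data known. Symbols, and promoters of 11722 genes, were taken from GENCODE and RefSeq annotations of GRCm38, a later build than that of the alignment, and 181 gene identifiers had no symbol. Alternatives were a pseudocount of 0.1, a mean of at least 5 CPM, 2 other scalings, no sort term or a random one, leaving out each replicate or the Id2 libraries, the L3 libraries alone, edgeR (version 4.0.16) on the recovered reads, an F test over conditions first, an adjusted p under 0.05, and no minimum fold change.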

Additional observations from a re-analysis of the deposited data

Results flagged for a closer look

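The difference between basal and luminal cells at L3 differed by test from that at the other time points for 914 genes and from that at L10 for 87 genes. The named genes among them are given here with their change, the log2 difference at L3 minus the mean of the other 7 time points. Batch and time cannot be told apart for these changes.

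Towards basal cells, the contractile and adhesion genes were *Pdlim3* (3.31), *Ppp1r12b* (3.00), *Lmod1* (2.62), *Cdh2* (2.61), *Synm* (2.40), *Synpo2* (1.91), *Tln1* (1.36) and *Srf* (1.10). Genes of receptors, channels, ligands and the Notch pathway were *Heyl* (3.81), *P2rx1* (2.74), *Notch3* (2.72), *Nrg1* (2.57) and *Kcnma1* (2.40). The others were *Lep* (4.93), *Tnni2* (4.68), *Npr3* (4.12), *Itprid1* (4.11), *Dmpk* (4.11), *Pgr* (3.27), *Krt7* (2.85), *Krt19* (2.20), *Plin1* (2.17) and *Srebf2* (1.23).

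Towards luminal cells, lipid genes were *Cidea* (-2.76), *Fasn* (-2.35), *Acaca* (-2.12), *Lpl* (-2.10), *Olah* (-2.08), *Scd1* (-1.87), *Dgat1* (-1.40) and *Xdh* (-1.40). Milk protein, lactose and secretion genes were *Lpo* (-4.17), *Hk2* (-2.31), *Ltf* (-2.04), *Wap* (-2.01), *B4galt1* (-1.89) and *Sec61a1* (-1.14). Transporters were *Slc39a8* (-4.65), *Slc9a4* (-3.71), *Atp2b2* (-3.43), *Slc30a2* (-2.27) and *Slc34a2* (-2.13). The others were *Krt79* (-4.42), *Sfrp2* (-4.28), *Apod* (-4.08), *Lgr5* (-3.09), *Gjb1* (-2.84), *Pard6b* (-2.14) and *Chrdl2* (-2.11).

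Against L10, the change was 2.92 for *Itprid1*, 3.04 for *Col1a1* and -3.12 for *Lpo*. Sequencing lane and time cannot be told apart for the changes from L10. Without the sort term or with the sort as a random effect, neither *Col1a1* nor *Lpo* was called.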

How the results depend on the processing

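The counts at L3 were 2901 genes higher in basal and 1810 in luminal cells. They stayed within 1.5 times of these under every alternative except the L3 libraries alone (790 and 444), which leave 2 residual degrees of freedom, and ranged from 2462 to 2769 and from 1557 to 1707 when 1 replicate was left out. Without the replicate block, 2720 and 1685 genes were called, 684 in place of 914 differed from the other time points and 66 in place of 87 from L10. The replicate block changed no call of the 152 genes named at L3 other than 4 that lost theirs without it. The 914 genes became 419 by edgeR, 1864 at an adjusted p under 0.05 and 553 to 762 with 1 replicate left out. The 87 genes that differed from L10 became 56 with a pseudocount of 0.1, 52 with a minimum mean of 5 CPM, 177 with a random block, 141 without the Id2 libraries, 8 by edgeR, 468 at an adjusted p under 0.05 and 29 to 190 with 1 replicate left out. The causes were not tested. Of 130 named genes called at L3, 6, 1 and 7 lost the call without replicates 4, 5 and 6, 4 by edgeR, 2 with the smaller pseudocount and 29 with the L3 libraries alone, and none of those tested did under the other scalings, 1 of which leaves out the milk protein genes. Direction changed in 3 named genes that were not called, *Krt7* without replicate 6 (log2 fold changes -0.24 to 0.56 with 1 replicate left out), *Mrtfb* without replicate 5 (-0.34 to 0.13) and *Ptprc* without replicate 6 (-0.26 to 0.94). Depth limits values of a few reads, which were worth up to 1.05 CPM per 3 reads.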
